A study of Arabidopsis thaliana with 8 samples.

Results

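The 49 genes described here had a lower signal on wild type array 4 than on every other array of a microarray study of Arabidopsis thaliana leaves. They were chosen by measured values from the 16746 probe sets of the matrix that name 1 gene. A gene was taken when wild type array 4 lay 1.5 or more log2 units below the mean of wild type arrays 1 to 3 and at least 0.5 below each of the 4 fbn5-1 arrays. A log2 unit is a doubling of signal, and the first of these differences is called the deficit below. Genes in a list of families and single genes (among them cytochrome P450s, expansins, glucosyltransferases, glutathione transferases and cellulose synthases) were left out by the same rule, and 8 genes that met both conditions went with them: BGLU28, PYK10, AT3G53980, TBL36, GH9B13, AT4G22485, AT4G22490 and EXPB3. Of 68 genes left with the deficit after these exclusions, 19 missed the condition on the fbn5-1 arrays. Because all 8 arrays entered the rule, the values below are a description of the chosen genes and carry no test.

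The study hybridised biotinylated cRNA made from total RNA of leaves to 8 arrays, 4 labelled fbn5-1 and 4 labelled wild type. The fbn5-1 plants carry a T-DNA insertion named for FBN5, which encodes a plastid protein of the fibrillin family, and the control plants are labelled wild type. All plants were of ecotype Col-0, were 3 weeks old and untreated, and had been raised on 0.5x MS medium with 1% sucrose, in 16 h of light and 8 h of dark at 25 °C. The labels give 1 insertion allele and do not say whether the replicates of a label came from separate plants, so the spread between arrays may be technical. In bulk leaf RNA, fewer cells of a type and less RNA per cell cannot be told apart.

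By the roles given below, the 49 genes include 6 cell wall and pectin genes, 4 class III peroxidases and 5 genes of the lipid transfer protein type. A further 7 were grouped as lectins, inhibitors and other defence proteins, among them AT3G20370, for which no defence role is given. Class III peroxidases and extensins act on or in the cell wall, where peroxidases use hydrogen peroxide to couple phenolics and wall proteins. Pectate lyases cut pectin, and inhibitors of pectin methylesterase leave its methyl groups in place. Lipid transfer proteins carry lipids and waxes outside the cell, and jacalin lectins, osmotin, thaumatin-like proteins and proteinase inhibitors are known from defence against microbes and herbivores. The roles given with the genes are textbook knowledge of Arabidopsis and not a result of these data. The groups were made from the 49 genes themselves and have no share over all genes beside them. Whether any group is more frequent here than among all genes was not tested.

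Wild type array 4 stood apart from the other arrays. Of the 28583 probe sets, its signal was lower than the mean of wild type arrays 1 to 3 by 1.5 or more for 192 and higher by as much for 506, against 5 to 68 in either direction on each of the other 7 arrays relative to those of its label. Its correlation across probe sets was 0.953 to 0.958 with the fbn5-1 arrays and 0.961 to 0.964 with wild type arrays 1 to 3, which correlated at 0.990 to 0.992 among themselves. Array medians were alike, at 3.42 to 3.49. FBN5 itself went against the labels: its signal was 4.71, 4.52, 4.76 and 4.58 on the fbn5-1 arrays, 5.15 on wild type array 4 and 3.54, 3.35 and 3.43 on wild type arrays 1 to 3. Where its probes lie relative to the insertion is not known here, so fbn5-1 and wild type mean throughout the arrays labelled so, and each direction rests on those labels. A listed marker or pathway gene is called measured here when a probe set naming 1 gene matched its name. Probe sets naming several genes or none may hold others. The 6 measured leaf-defining genes had means of 8.16 to 11.16 on wild type arrays 1 to 3, and wild type array 4 differed from them by -0.40 to 0.03. Of the markers of other organs, the 3 measured flower and pollen genes had means of 1.52 to 2.15 on wild type arrays 1 to 3, none past the filter on low signal. Of the root markers, PYK10 and NAXT1 were measured, and wild type array 4 differed by -2.58 and 1.41. The part of RNA quality, handling or plant state in wild type array 4 was not tested.

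**Figure D1:**
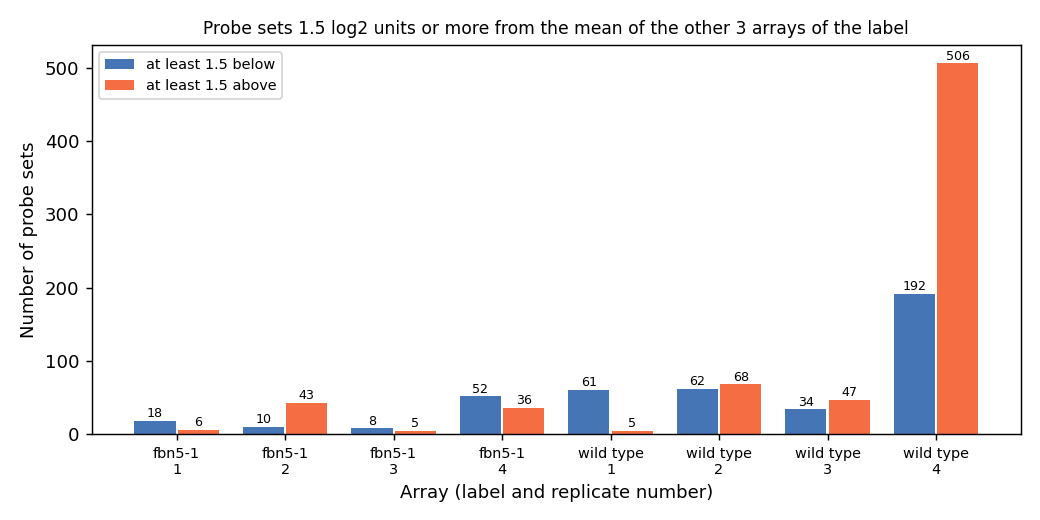
Number of probe sets, of 28583, whose log2 signal on an array was at least 1.5 below (blue) or at least 1.5 above (orange) the mean of the other 3 arrays of its label. Wild type array 4 has 192 below and 506 above, and no other array passes 68 in either direction.

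Wild type array 4 was the lowest of the 8 arrays for all 49 genes, by at least 0.71 below the next wild type array. The median deficit was -1.98 and ran from -4.54 to -1.5, against a median of -0.08 over the 17147 probe sets that passed the filter on low signal. All 49 genes passed that filter, a mean over the 8 arrays above 2.79. The median signal of the 49 genes was 5.36, 4.96, 5.28 and 5.27 on fbn5-1 arrays 1 to 4, 2.92 on wild type array 4, and 4.92, 4.96 and 5.49 on wild type arrays 1 to 3. For 22 genes the signal on wild type array 4 was itself below 2.79, the filter value. With 16 added to the linear signal the median deficit of the same 49 genes was -1.13, in a range of -2.61 to -0.44, and 13 of them still met the rule. A deficit was the rarer direction on wild type array 4: 76 probe sets naming 1 gene had one (0.454%), while 263 lay 1.5 or more above (1.57%). Among all 17147 probe sets tested the shares were 1.05% below and 2.26% above. The shares for probe sets naming 1 gene are over all 16746 without the filter, which 9066 of them passed. They are therefore not comparable with the shares among probe sets tested.

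**Figure D2:**
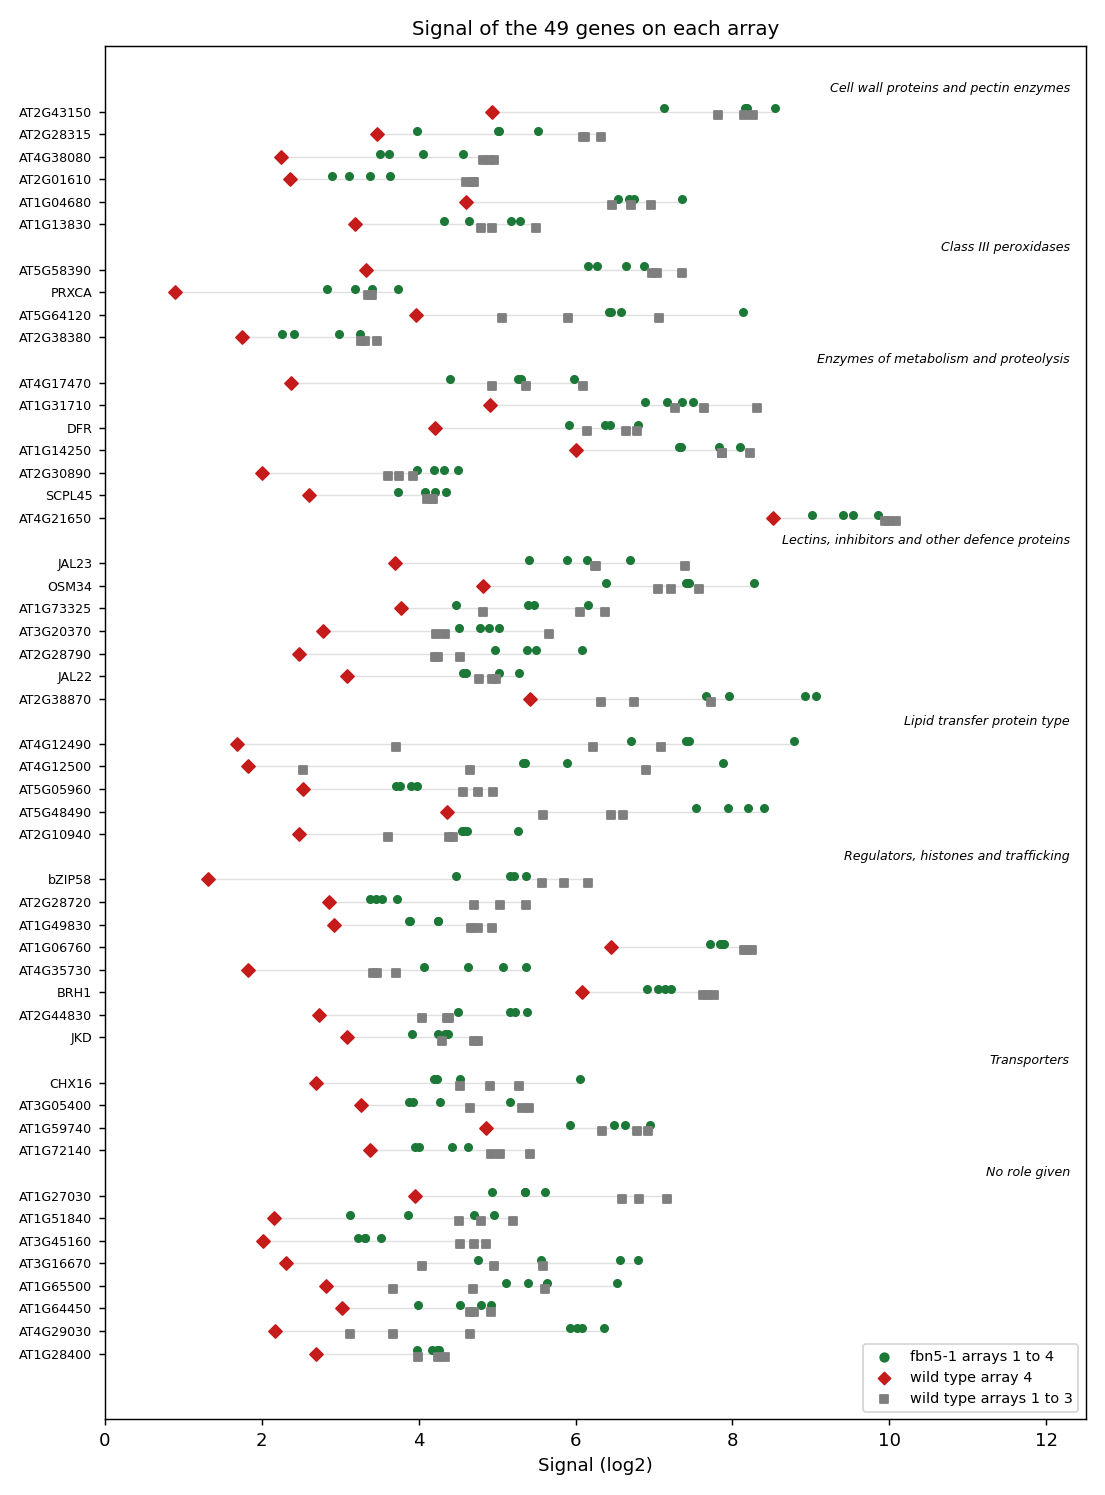
Log2 signal of the 49 genes on fbn5-1 arrays 1 to 4 (green circles), wild type array 4 (red diamonds) and wild type arrays 1 to 3 (grey squares), ordered by group and, within a group, by the size of the deficit. The red diamond is the leftmost point in all 49 lines, as the rule requires against fbn5-1, while green and grey points change sides from gene to gene.

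Over all probe sets tested, the 4 fbn5-1 arrays lay above all of wild type arrays 1 to 3 for 14.7% and below all of them for 19.4%, and the counts by group that follow stand beside these shares. The rule used the same arrays, so nothing is read from them.

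The values just inside and just outside the 2 thresholds differed little. JKD, AT1G28400 and AT4G21650 were the last genes inside on the deficit, at -1.51, -1.5 and -1.5, and IQD19, GH3.17 and AT1G60060 the first outside, at -1.48, -1.47 and -1.45. On the gap to the lowest fbn5-1 array, AT2G38380, AT2G28315 and AT4G21650 lay just inside at -0.51, -0.51 and -0.5. AT3G61898, AT1G22480 and AT4G18440 lay just outside at -0.46, -0.45 and -0.39, although their deficits of -1.93, -3.27 and -2.40 were as large as those of many genes inside.

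Cell wall proteins and pectin enzymes made up 6 of the 49 genes, with deficits of -3.13 to -1.88 and a median of -2.47. The extensin-like proline-rich gene AT2G43150 had 8.16, 8.54, 8.19 and 7.13 on the fbn5-1 arrays, 4.94 on wild type array 4 and 7.81, 8.26 and 8.15 on wild type arrays 1 to 3. Its deficit of -3.13 was still -2.61 with 16 added, the largest of the 49 genes on that scale, and the fbn5-1 and wild type 1 to 3 arrays overlapped. AT1G04680, of the pectate lyase family, likewise overlapped, with 7.35, 6.54, 6.74 and 6.68 on the fbn5-1 arrays, 4.60 on wild type array 4 and 6.47, 6.71 and 6.96 on wild type arrays 1 to 3. AT2G01610 behaved differently. This gene of the invertase and pectin methylesterase inhibitor family had 3.63, 3.11, 2.89 and 3.38 on the fbn5-1 arrays, 2.36 on wild type array 4 and 4.68, 4.71 and 4.60 on wild type arrays 1 to 3, so that the fbn5-1 arrays lay between the others. AT2G28315, a carrier of UDP-xylose into the Golgi, where wall polysaccharides are made, also lay between, with 5.02, 3.98, 5.01 and 5.52 on the fbn5-1 arrays, 3.47 on wild type array 4 and 6.10, 6.12 and 6.33 on wild type arrays 1 to 3. The hydroxyproline-rich glycoprotein gene AT4G38080 was the third of this kind, at 0.96 below wild type arrays 1 to 3 in the fbn5-1 mean. AT1G13830, of a family with a carbohydrate-binding domain, overlapped.

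The 4 class III peroxidases had deficits of -3.79 to -1.60. AT5G58390 had 6.87, 6.16, 6.27 and 6.64 on the fbn5-1 arrays, 3.33 on wild type array 4 and 6.98, 7.04 and 7.35 on wild type arrays 1 to 3. Its fbn5-1 arrays were all below wild type arrays 1 to 3, yet close to them compared with wild type array 4. PRXCA had 3.73, 3.19, 3.41 and 2.83 on the fbn5-1 arrays, 0.89 on wild type array 4 and 3.41, 3.35 and 3.39 on wild type arrays 1 to 3. It was a dim gene, and its deficit of -2.49 shrank to -0.57 with 16 added. AT5G64120 had 6.42, 8.14, 6.45 and 6.58 on the fbn5-1 arrays, 3.96 on wild type array 4 and 5.90, 5.06 and 7.06 on wild type arrays 1 to 3, with fbn5-1 array 2 far above the other 3 of its label. AT2G38380, the faintest of the 4 on the fbn5-1 arrays, had all of them below wild type arrays 1 to 3. This gene is also named by a probe set that names 4 genes, on which wild type array 4 differed from wild type arrays 1 to 3 by -0.25.

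The 5 genes of the lipid transfer protein type differed by -0.92 to 1.91 between the fbn5-1 mean and that of wild type arrays 1 to 3. AT4G12490 had 6.70, 8.79, 7.41 and 7.45 on the fbn5-1 arrays, 1.68 on wild type array 4 and 6.22, 3.71 and 7.09 on wild type arrays 1 to 3. Its neighbour AT4G12500 had 5.36, 7.88, 5.33 and 5.89 on the fbn5-1 arrays, 1.82 on wild type array 4 and 4.65, 2.53 and 6.90 on wild type arrays 1 to 3. Wild type arrays 1 to 3 spread over more than 2 log2 units for both, and the fbn5-1 arrays overlapped them. Their fbn5-1 differences of 1.91 and 1.42 became 0.93 and 0.34 without wild type array 2, a setting chosen after seeing the data. Both are proline-rich lipid transfer genes that stand close together and are alike in sequence, and probes for such copies may detect either. AT5G48490 did not overlap, with 7.94, 7.53, 8.20 and 8.40 on the fbn5-1 arrays, 4.36 on wild type array 4 and 5.58, 6.45 and 6.60 on wild type arrays 1 to 3. All its fbn5-1 arrays lay above all wild type arrays. AT2G10940 did so too, with a mean 0.61 above that of wild type arrays 1 to 3, whereas AT5G05960 had 3.90, 3.98, 3.76 and 3.71 on the fbn5-1 arrays, 2.53 on wild type array 4 and 4.95, 4.75 and 4.56 on wild type arrays 1 to 3.

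The group of lectins, proteinase inhibitors and other defence proteins held 7 genes, among them AT3G20370, for which no defence role is given. Of the 7 genes, 6 overlapped between the fbn5-1 arrays and wild type arrays 1 to 3, as did most probe sets tested. The jacalin lectin JAL23 had 6.69, 5.40, 6.14 and 5.89 on the fbn5-1 arrays, 3.70 on wild type array 4 and 6.26, 6.25 and 7.40 on wild type arrays 1 to 3. JAL22, another lectin of this family, had a smaller deficit of -1.81 and near-equal means on the other arrays, 0.03 lower on the fbn5-1 arrays. Jacalin lectins associate with the beta-glucosidase PYK10, which is stored in ER bodies, and PYK10 met both conditions before the exclusions, with a deficit of -2.58. In a list of 8 genes of the PYK10 complex and ER bodies, drawn up after these values were seen, these 3 had the deficit, NAI2, needed for ER body formation, was at -1.32, and JAL31, JAL33 and JAL34 were at -0.76 to -0.39. NAI1, the transcription factor of ER bodies, was at 0.08, and it and JAL31 did not pass the filter.

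OSM34, an osmotin, had 7.45, 7.41, 8.27 and 6.39 on the fbn5-1 arrays, 4.82 on wild type array 4 and 7.05, 7.21 and 7.57 on wild type arrays 1 to 3, with wild type array 4 alone apart. The thaumatin-like gene AT2G28790 had 6.08, 5.38, 4.97 and 5.49 on the fbn5-1 arrays, 2.48 on wild type array 4 and 4.24, 4.21 and 4.52 on wild type arrays 1 to 3. Here the fbn5-1 arrays were all above every wild type array. AT2G38870, of the potato type I proteinase inhibitor family, had 7.66, 9.07, 8.92 and 7.95 on the fbn5-1 arrays, 5.42 on wild type array 4 and 6.75, 6.33 and 7.72 on wild type arrays 1 to 3, a higher fbn5-1 mean with 1 overlapping array. The Kunitz inhibitor gene AT1G73325 and AT3G20370, of the TRAF-like family, overlapped with mean differences of -0.37 and 0.06.

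The 7 enzymes of metabolism and proteolysis had deficits of -3.10 to -1.5. AT4G17470, a thioesterase-type hydrolase, had 5.26, 4.40, 5.98 and 5.31 on the fbn5-1 arrays, 2.37 on wild type array 4 and 5.37, 4.94 and 6.09 on wild type arrays 1 to 3. The copper amine oxidase gene AT1G31710, whose family oxidises polyamines and releases hydrogen peroxide, had 7.50, 6.89, 7.35 and 7.16 on the fbn5-1 arrays, 4.91 on wild type array 4 and 7.27, 7.64 and 8.31 on wild type arrays 1 to 3. DFR, the dihydroflavonol reductase of anthocyanin synthesis, had 6.79, 5.91, 6.44 and 6.38 on the fbn5-1 arrays, 4.21 on wild type array 4 and 6.64, 6.15 and 6.78 on wild type arrays 1 to 3. In all 3 the fbn5-1 and wild type 1 to 3 arrays overlapped and wild type array 4 was well below both. AT1G14250, of the apyrase family, and the serine carboxypeptidase-like gene SCPL45 had the same pattern, at deficits of -1.98 and -1.55. The subtilase gene AT4G21650 was the brightest of the 49, with 9.41, 9.01, 9.53 and 9.85 on the fbn5-1 arrays, 8.51 on wild type array 4 and 10.0, 9.94 and 10.09 on wild type arrays 1 to 3. Its fbn5-1 arrays lay below wild type arrays 1 to 3, while those of AT2G30890, of the cytochrome b561 domain family, lay above them by 0.49 in the mean.

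Regulators, histones and trafficking genes gave 8 genes. Of these, 2 had all fbn5-1 arrays above wild type arrays 1 to 3 (14.7% of all probe sets tested), 5 had all of them below (19.4% of all), and 1 overlapped. The transcription factor gene bZIP58 had the largest deficit of all, with 5.37, 4.47, 5.16 and 5.22 on the fbn5-1 arrays, 1.32 on wild type array 4 and 5.57, 5.85 and 6.16 on wild type arrays 1 to 3. That deficit of -4.54 became -2.01 with 16 added. The histone H2B gene AT2G28720 had 3.45, 3.53, 3.38 and 3.72 on the fbn5-1 arrays, 2.86 on wild type array 4 and 5.37, 5.03 and 4.70 on wild type arrays 1 to 3, so its fbn5-1 arrays were nearer to wild type array 4 than to the rest. The linker histone gene AT1G06760, with 7.89, 7.71, 7.87 and 7.84 on the fbn5-1 arrays, 6.45 on wild type array 4 and 8.25, 8.15 and 8.18 on wild type arrays 1 to 3, was also lower but by 0.37 only. BRH1, a RING protein gene that responds to brassinosteroid, and AT1G49830, of the basic helix-loop-helix family, followed the same order, with fbn5-1 means lower by 0.61 and 0.72. AT4G35730, an IST1-like gene of endosomal sorting, had 5.37, 4.07, 4.63 and 5.07 on the fbn5-1 arrays, 1.82 on wild type array 4 and 3.71, 3.42 and 3.47 on wild type arrays 1 to 3. It and the AGC kinase gene AT2G44830 were the 2 with higher fbn5-1 arrays, and the zinc finger gene JKD, known from root patterning, overlapped.

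The 4 transporters had deficits of -2.22 to -1.75 and lower fbn5-1 means in each case, by 0.16 to 0.87. CHX16, a cation/proton exchanger, had 4.52, 6.05, 4.23 and 4.20 on the fbn5-1 arrays, 2.69 on wild type array 4 and 4.53, 4.91 and 5.28 on wild type arrays 1 to 3, with fbn5-1 array 2 above all the others. AT1G72140, of the NRT1/PTR family of nitrate and peptide carriers, had 4.63, 4.00, 4.43 and 3.95 on the fbn5-1 arrays, 3.38 on wild type array 4 and 4.92, 5.42 and 5.04 on wild type arrays 1 to 3, the only one of these 4 without overlap. AT1G59740, of the same family, and the sugar transporter gene AT3G05400 overlapped.

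For 8 genes no role is given. AT4G29030 had the highest fbn5-1 level of the 49 relative to wild type arrays 1 to 3, at 2.28 above them, with 6.36, 5.93, 6.02 and 6.08 on the fbn5-1 arrays, 2.17 on wild type array 4 and 3.67, 3.12 and 4.66 on wild type arrays 1 to 3. AT1G27030 had the lowest, at 1.54 below, with 5.61, 4.94, 5.36 and 5.36 on the fbn5-1 arrays, 3.95 on wild type array 4 and 6.81, 6.59 and 7.16 on wild type arrays 1 to 3. Neither overlapped. AT3G45160 resembled AT1G27030, with 3.32, 3.23, 3.52 and 3.32 on the fbn5-1 arrays, 2.01 on wild type array 4 and 4.71, 4.52 and 4.86 on wild type arrays 1 to 3. AT1G51840, AT3G16670, AT1G65500, AT1G64450 and AT1G28400 overlapped, with mean differences of -0.67, 1.06, 1.01, -0.20 and -0.03.

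Over the 49 genes the fbn5-1 level lay on either side of that of wild type arrays 1 to 3, more often below. The fbn5-1 mean was above theirs for 16 genes and below for 33, and the median difference was -0.20, against -0.02 over all probe sets tested. All 4 fbn5-1 arrays lay above all of wild type arrays 1 to 3 for 7 genes (14.3%), where 14.7% of all probe sets tested did so. They lay below for 15 genes (30.6%), where 19.4% of all did so, and 27 genes overlapped. Means at least 1 higher were found for 9 genes and at least 1 lower for 5, against 1.57% and 1.30% of all probe sets. The rule required the fbn5-1 arrays to stand above wild type array 4 and used wild type arrays 1 to 3 as well, so nothing is read from these shares. For the 15 genes with lower fbn5-1 arrays, a signal below that of wild type arrays 1 to 3 was not limited to wild type array 4. Few markers of leaf cell types were measured, and some of them also differed between fbn5-1 and wild type arrays 1 to 3. FDH of the epidermis and SWEET11 of the phloem were at -0.99 and -0.63. TRY of trichomes was at 0.97, with 4.78 to 6.01 on wild type arrays 1 to 3. Of the guard cell lineage, SPCH was at 1.70, but fbn5-1 array 2 had 2.86 beside 2.79 on wild type array 3. FMA, also of this lineage, was at -0.14 and overlapped. On wild type array 4 these 5 lay within -0.10 to 0.18 of wild type arrays 1 to 3. Their part in the fbn5-1 levels was not tested.

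**Figure D3:**
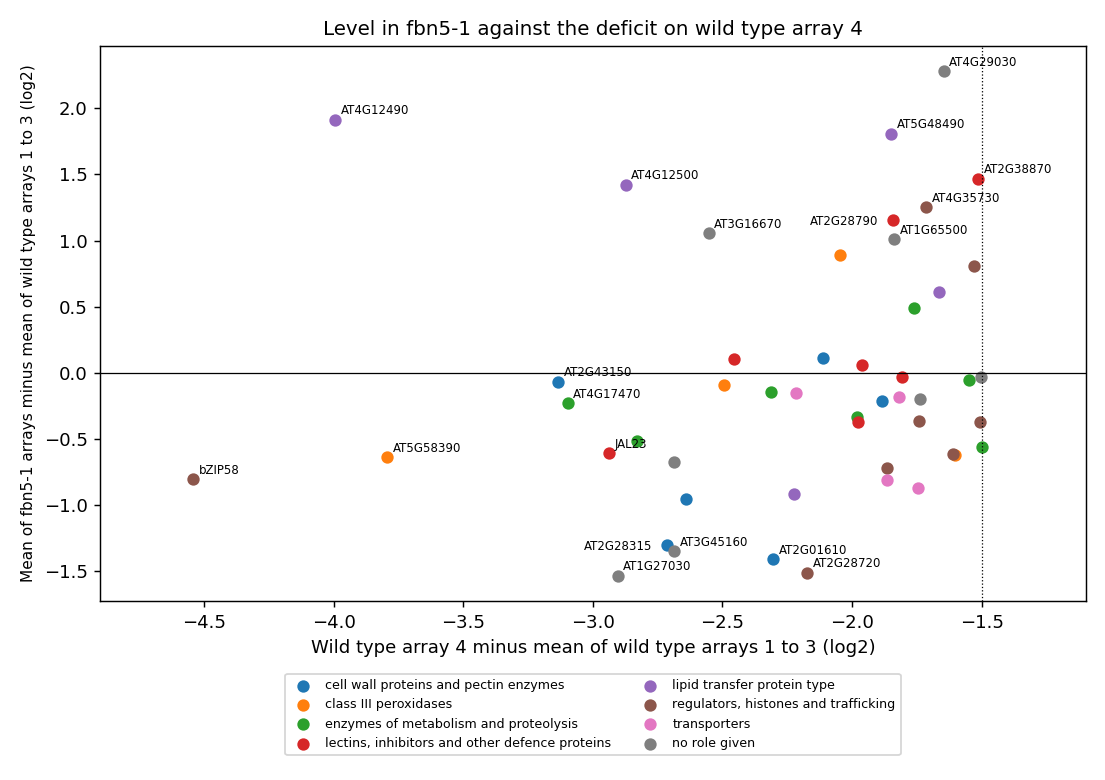
Mean of the fbn5-1 arrays minus mean of wild type arrays 1 to 3 (vertical, log2) against wild type array 4 minus the same mean (horizontal, log2), 1 point per gene, coloured by group. Points lie above and below the zero line at small and large deficits, from -1.54 to 2.28, and the dotted line marks the threshold of -1.5.

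Which wild type arrays were used set the sign of the fbn5-1 difference for many of these genes. With all 8 arrays the fbn5-1 mean was higher for 35 of the 49 and lower for 14, with a median difference of 0.33. Without wild type array 4 the median was -0.20, and 19 genes turned from higher to lower, among them bZIP58, AT5G58390, JAL23 and AT1G31710. In a limma fit of all 8 arrays, with a Benjamini-Hochberg adjusted p under 0.05 as the threshold, 5 of the 49 were called higher in fbn5-1 (AT5G48490, AT2G28790, AT2G38870, AT4G35730 and AT4G29030), beside 8.22% of all probe sets, and 0 were called lower, beside 8.55%. Without wild type array 4 the calls were 7 higher and 14 lower, beside 9.61% and 13.0% of all, and the 5 genes were among them. Leaving out wild type array 2 gave 2 calls, any single fbn5-1 array or wild type array 1 gave 3, and wild type array 3 gave 7, while 10.1% to 13.7% of all probe sets were called in these fits. The rule used this contrast, so these counts describe the fit and are no evidence about the genes.

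**Figure D4:**
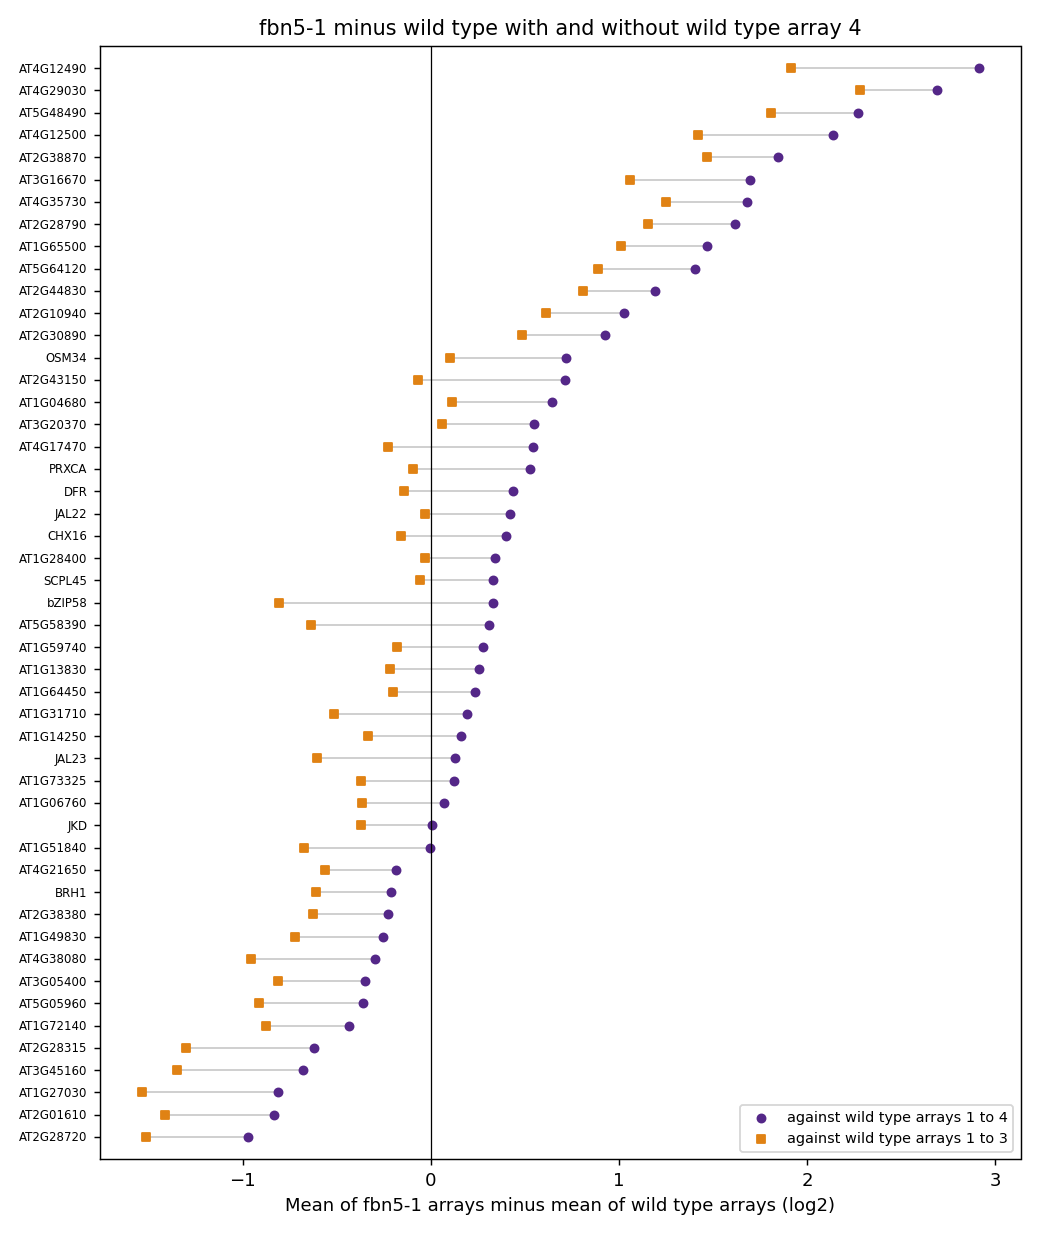
Mean of the 4 fbn5-1 arrays minus the mean of wild type arrays 1 to 4 (purple circles) or of wild type arrays 1 to 3 (orange squares), in log2 units, 1 line per gene. Every square lies left of its circle, as the deficit requires, and 19 genes cross the zero line.

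The 49 genes also varied among arrays other than wild type array 4. Their median standard deviation was 0.38 over the fbn5-1 arrays and 0.26 over wild type arrays 1 to 3, against 0.17 and 0.13 over all probe sets tested. The signal on fbn5-1 array 2 was the lowest of its label for 28 genes (57.1%, against 34.6% of all probe sets tested). Wild type array 3 was the highest of arrays 1 to 3 for 29 genes (59.2%, against 32.7% of all). For 13 genes wild type arrays 1 to 3 spanned over 1 log2 unit. A smaller set ran against that order on the fbn5-1 side: AT4G12490, AT4G12500, AT5G64120, AT1G65500 and AT2G38870 were highest on fbn5-1 array 2 and, among wild type arrays 1 to 3, lowest on array 2 and highest on array 3. That is 10.2% of the 49 genes, and 3.77% of all probe sets tested had this order. The order was taken from these same genes, and probes for the neighbours AT4G12490 and AT4G12500 may detect either. The rule used all these arrays, so nothing is read from the shares and spreads of this paragraph. AT4G12490 and AT4G12500 are of the lipid transfer type, AT5G64120 is a peroxidase gene and AT2G38870 an inhibitor gene.

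**Figure D5:**
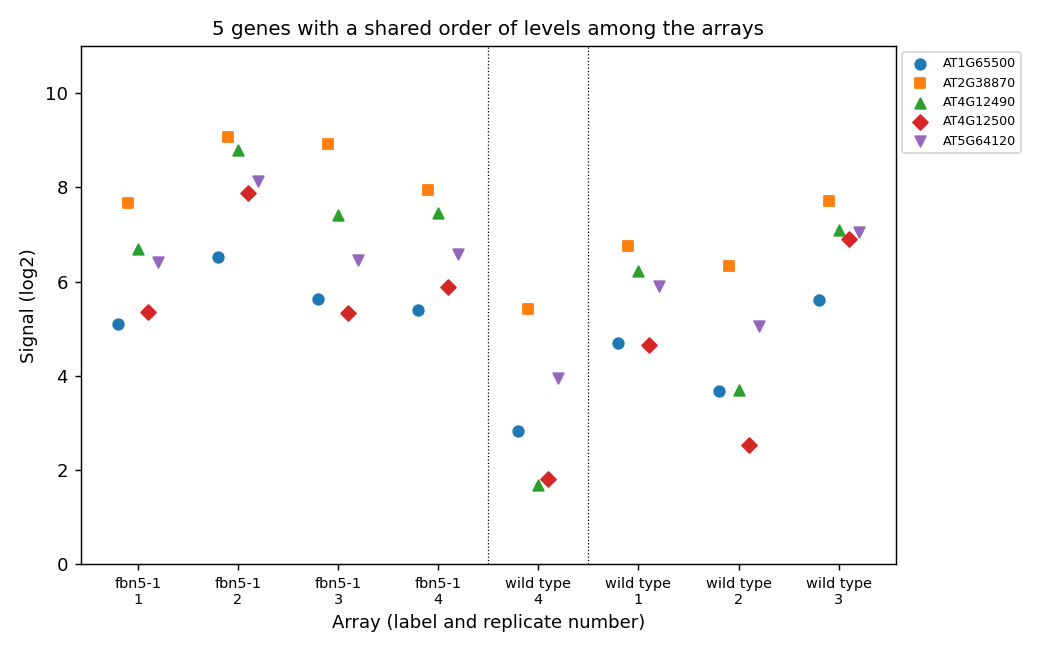
Log2 signal of AT1G65500, AT2G38870, AT4G12490, AT4G12500 and AT5G64120 on fbn5-1 arrays 1 to 4, wild type array 4 and wild type arrays 1 to 3. All 5 peak on fbn5-1 array 2 and, of wild type arrays 1 to 3, are highest on array 3 and lowest on array 2.

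By chromosome, 17, 12, 6, 8 and 6 of the genes lay on chromosomes 1 to 5, with no share over all genes beside these counts. Of 192 other measured genes within 4 genes of one of them in the TAIR10.1 gene order, 1 had the deficit: AT2G28780, 2 genes from AT2G28790, at -1.56. The median of these neighbours was -0.06, each taken by its probe set with the lowest difference. Of all probe sets naming 1 gene, 0.454% had the deficit. JAL22 and JAL23, and AT4G12490 and AT4G12500, were the 2 pairs of the 49 that stood this close. Of 33 lists of pathways and cell type markers, 27 had a probe set past the filter and 6 had none, and many were measured only in part. Of these lists, 3 held at least 1 of the 49 genes. The 49 are few beside the 9066 probe sets naming 1 gene that passed the filter. The lists are short, so nothing is read from a list that held none. PYK10, in the root marker list, had the deficit but was left out by the rule. The list of arabinogalactan and other wall proteins, with 15 probe sets past the filter, held none. It was matched by symbol, so PRP39, PRP39-2 and PMEAMT entered by spelling alone. No gene with an arabinogalactan protein symbol was matched, and GH9A3 was left out by the rule. Nothing is therefore read about wall proteins from this list. The salicylic defence list, with 10 past the filter, held none either. Those 10 were WRKY genes, NHL22, EFR, AT5G53730 and AT1G77750, matched by name, with no PR gene. Nothing is read about salicylic defence from them. AT1G59740 was in the nitrate and nitrogen list, with 10 probe sets of 9 genes past the filter, a list that does not hold AT1G72140. DFR was in the flavonoid and phenylpropanoid list, with 4 past the filter. Of these, UGT78D2 and UGT78D3 could not be among the 49, because the rule left out symbols starting UGT. CHX16 was in the aquaporin and ion transport list, of which 5 exchangers of the CHX family passed. No aquaporin was matched by a probe set naming 1 gene.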

How the data were processed

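The deposited series matrix holds 1 log2 signal per probe set and array, made by the authors with MAS5, per the submitters' processing notes. Its log base is taken from the range of the values, and scaling and background steps are not given in the sources used here. The 200 ng of RNA behind each array was labelled as biotinylated cRNA, per the labels' protocols. No column of per-sample values was left unused (0). Probe sets were named from the platform annotation, with symbols updated and gene order taken from the TAIR10.1 gene table: 16746 of 28583 named 1 gene, 758 several and 11079 none, and 16601 of the 16746 were found in the table. The array's genome build is not given in the sources used here, so no coordinates are printed. The number of arrays limits precision.

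The deposited log2 values were used without further normalization. Probe sets with a mean over the 8 arrays above the 40th percentile of all were tested (17147), with limma 3.58.1 in R 4.3.3 (lmFit and eBayes with an intensity trend, Benjamini-Hochberg adjustment). Of these steps, only the limma fit was tested on simulated data. The simulated spreads came from the fbn5-1 arrays and wild type arrays 1 to 3, so no simulated array stood apart. Alternatives were quantile normalization, 16 added to the linear signal, other filters, no trend, a replicate block, each array left out, and other thresholds of the rule. Genes were named by rule: the 20 largest deficits, the 8 highest and 8 lowest fbn5-1 differences, up to 4 per functional group or list, and 3 on each side of the thresholds. Other members are given beside them to account for all 49. The members and lists were chosen with earlier results of these data known. FBN5 and the PYK10 list were added for their values.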

Additional observations from a re-analysis of the deposited data

Results flagged for a closer look

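For 21 of the 49 genes the gap between wild type array 4 and the next wild type array, as a share of the range of the 4 wild type arrays, was above the 95% critical value for 4 samples. The rule chose the genes for this gap. Among the 4 fbn5-1 arrays, AT2G10940 passed with a share of 0.903, since array 4 had 5.27 and the other 3 had 4.55 to 4.62. AT5G64120 passed with 0.907, since array 2 had 8.14 and the others 6.42 to 6.58. Chance alone flags about 1 in 20 groups, and 2 of 49 were flagged among the fbn5-1 arrays.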

How the results depend on the processing

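The count of 49 genes depended on scale and threshold: 13 were found with 16 added to the linear signal (all 13 among the 49), 23 with a deficit of 2 and 137 with a deficit of 1. Quantile normalization gave 44 (43 shared). The count of probe sets called between fbn5-1 and wild type was 2876, and 1738 to 3875 with 1 array left out. The count of the 49 called was 5, and 2 to 21 with 1 array left out, the 21 without wild type array 4. The median fbn5-1 difference from wild type arrays 1 to 3 was -0.20 and stayed between -0.29 and -0.09 with 1 array left out. With the replicate number as a block, 1731 probe sets and 3 of the 49 genes were called. Deviations of same-numbered arrays from the mean of their label correlated at 0.16, -0.19, -0.04 and 0.00. Of the 4 fbn5-1 arrays, 1 correlated best with its own number. The wild type mean included array 4, which stood apart and so entered every wild type deviation. These correlations therefore cannot show whether the numbers pair the arrays. The cause of the shifts in the counts was not tested. On wild type array 4, 22 of the genes had signals below 2.79.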
